A study of Mus musculus with 10 samples.

Results

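Secreted matrix glycoproteins and proteoglycans were followed through the mRNA pools of mouse embryonic fibroblasts, cells that lay down the connective tissue of the embryo. The list held 9 genes: Sparc, Fn1, Fbn1, Dcn, Bgn, Lum, Ogn, Serpinf1 and Fstl1. Members were all probe sets of the array whose platform annotation gives 1 gene symbol equal to one of these names. 8 of the 9 genes had 11 such probe sets, out of 12422 ordinary probe sets and 8251 genes in all, and Fbn1, which encodes the microfibril protein fibrillin-1, was not analysed here. Ogn (160877_at, 99549_at), Bgn (96049_at, 162347_f_at) and Serpinf1 (93574_at, 162429_r_at) had 2 probe sets each, and the first named, with the higher mean over the arrays, stands for the gene in counts. The others were Sparc 97160_at, Fn1 92852_at, Dcn 93534_at, Lum 93353_at and Fstl1 94833_at. All 11 were among the 9316 probe sets kept by a filter that left out the lowest 25% by mean level.

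The study followed mRNA 2 h after serum was given to starved fibroblasts, in total cytoplasmic RNA and by ribosome load. The primary fibroblasts came from e14.5 embryos labelled C57/BLACK6, ATF1 +/-, so every group, the starved controls included, carried this Atf1 genotype. The only Atf1 probe set is annotated with 2 symbols and was not used to check the genotype. All cultures spent 48 h in dialyzed fetal bovine serum at 1%, followed by 2 h in either 1% serum (starved) or 10% serum (serum). Cytoplasmic RNA came from cells without cycloheximide, with 1 array per serum state. The gradient pools came from cells that had 100 ug/ml cycloheximide, which stalls ribosomes, for 30 min. Undertranslated RNA is mRNA with at most 1 ribosome, free mRNA and mRNA on a subunit included, and polyribosome RNA carries 2 or more, with 2 arrays per pool and serum state. The cultures behind replicate 2 of the gradient groups had been given 200 uM 4-thiouridine and 3H-cytidine, and those behind replicate 1 had neither. Each gradient array was hybridized with fractions mixed from several biological and technical replicates, and the spread that p-values rest on is that between 2 such mixtures.

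Matrix proteins of this kind are made on ribosomes at the endoplasmic reticulum, where a signal peptide leads the chain into the lumen, and they leave the cell through the Golgi. Decorin (Dcn), biglycan (Bgn), lumican (Lum) and osteoglycin (Ogn) are small leucine-rich repeat proteins that bind collagen or growth factors, several of them carrying glycosaminoglycan chains. Fibronectin (Fn1) forms fibrils that integrins hold, while Sparc (osteonectin), Fstl1 (a follistatin-like glycoprotein) and Serpinf1 (pigment epithelium-derived factor, a serpin without protease inhibition) are secreted glycoproteins that act around cells.

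Promoter sequence is shown for Ogn, the gene whose cytoplasmic signal differed most between serum states, and for Sparc and Bgn, whose cytoplasmic signals differed least. Each run holds the 250 bases before the RefSeq start in GRCm38.p6, 5′ to 3′ on the gene's strand, with capitals for matches to the motifs searched.
Ogn (chr13:49607765-49608014, plus strand): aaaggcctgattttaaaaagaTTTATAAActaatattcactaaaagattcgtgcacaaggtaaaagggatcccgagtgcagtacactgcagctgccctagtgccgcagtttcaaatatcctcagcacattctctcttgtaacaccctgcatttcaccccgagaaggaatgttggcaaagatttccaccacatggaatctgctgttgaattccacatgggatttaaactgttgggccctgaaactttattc
Sparc (chr11:55420081-55420330, minus strand): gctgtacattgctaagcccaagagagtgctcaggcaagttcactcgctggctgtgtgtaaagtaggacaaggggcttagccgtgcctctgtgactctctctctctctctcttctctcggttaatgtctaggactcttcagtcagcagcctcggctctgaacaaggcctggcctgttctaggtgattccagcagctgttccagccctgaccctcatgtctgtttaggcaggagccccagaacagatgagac
Bgn (chrX:73483351-73483600, plus strand): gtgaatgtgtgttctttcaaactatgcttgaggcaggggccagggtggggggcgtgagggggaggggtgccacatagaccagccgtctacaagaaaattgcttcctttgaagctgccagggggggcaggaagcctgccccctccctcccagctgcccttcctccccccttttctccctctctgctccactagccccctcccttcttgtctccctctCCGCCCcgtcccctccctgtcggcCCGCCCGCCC
The motifs were TATAAA (the TATA box), GGGCGG (the core of an Sp1 site), CCAAT (bound by NF-Y), TGANTCA (the AP-1 site) and the CArG box of serum response factor, each on both strands. Ogn held a TATAAA in each direction, which overlap, the first at -229 from the start, a motif found in 12.4% of 32851 windows of this length. Bgn held 3 matches to GGGCGG on the opposite strand, 2 of them overlapping, and 32.7% of windows hold this motif. Sparc held none of the 5. No TGANTCA or CArG box was found in any of the 6 windows available for the list, against 6.75% and 1.47% of all windows. G and C made up 42.0% of the Ogn window, 54.0% of the Sparc window and 64.4% of the Bgn window, against a median of 52.4%. The table of promoters held 6 of the 9 genes, and Fn1, Dcn and Lum have no entry in it. In the order of genes on the chromosome, Dcn and Lum are neighbours, and Ogn lies beside Omd, another leucine-rich repeat gene.

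The deposited values are linear intensities, 1 per probe set and array. Median intensity was 5.7 to 8.8 on the 4 undertranslated arrays, 19.1 to 19.2 on the 2 cytoplasmic arrays and 45.3 to 54.2 on the 4 polyribosome arrays. A probe set counted as above background on an array if it exceeded the brightest of 19 unspiked control probe sets for bacterial and yeast genes. That held for 43.4% to 53.5% of probe sets on undertranslated arrays, 56.3% to 64.7% on cytoplasmic arrays and 68.0% to 73.5% on polyribosome arrays. The number of arrays limits the precision. Comparisons used log2(intensity + 1.5), quantile normalized so that every array has the same distribution, and these are called scaled values. RNA quality moved with the pool: the 3′ to 5′ ratio of the Actb controls was 23.6 to 137 on undertranslated, 11.9 to 16.6 on cytoplasmic and 11.5 to 21.1 on polyribosome arrays, while that of the Gapdh controls was 3.70 to 6.81, 28.4 to 47.0 and 6.11 to 20.9 in the same order. All 12 fibroblast markers on the array were above background on the 4 polyribosome and the 2 cytoplasmic arrays. Their part in the results below was not tested.

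**Figure D1:**
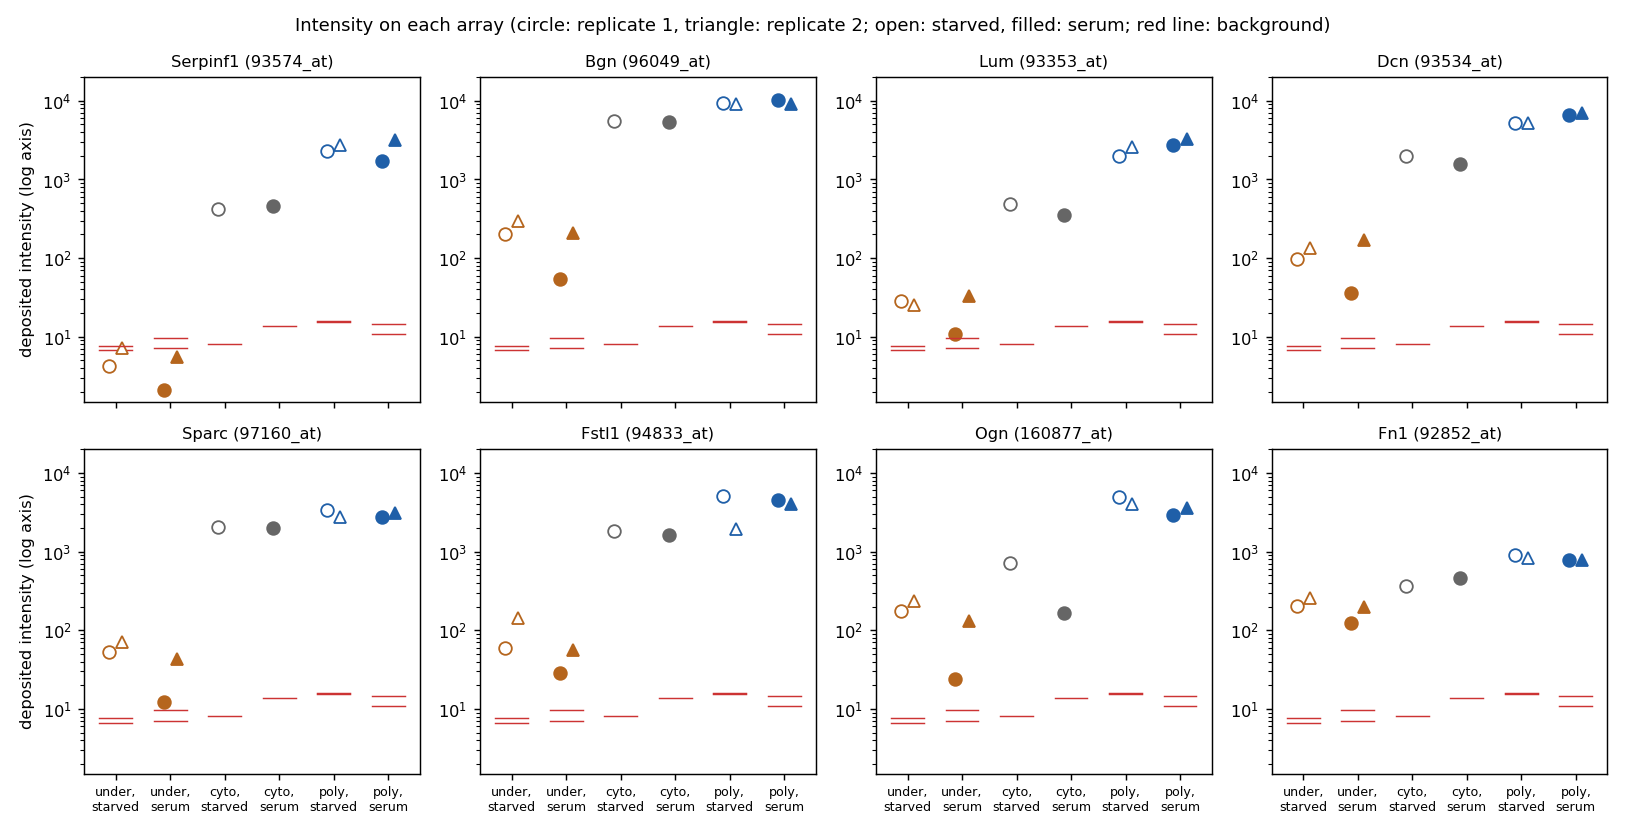
Deposited intensity (log axis) of the representative probe set of each of the 8 genes on the 10 arrays, by RNA pool and serum state. Circles are replicate 1, triangles replicate 2, open symbols starved and filled symbols serum, and the red line is the background of each array. The polyribosome arrays are the highest for all 8 genes. They lie above the undertranslated ones for 86.2% of all probe sets, and the share lying above both other pools was not computed. Serpinf1 lies below background on the 4 undertranslated arrays.

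The first comparison asked how the matrix mRNAs divided between polyribosome and undertranslated RNA. With both serum states together, 7 of the 8 genes were higher in polyribosome RNA and 1, Fn1, was lower by the scaled values (limma, Benjamini-Hochberg adjusted p under 0.05). Of all probe sets tested, 28.7% were higher and 25.5% lower. The median log2 difference of the 8 genes was 2.35, beside 0.05 over all probe sets tested. In the deposited values 7 of the 8 genes stood in the order undertranslated, cytoplasmic, polyribosome with no overlap between pools. Ogn was the exception. The median intensity of the arrays, given above, rose in the same order. For 86.2% of all probe sets every polyribosome array lay above every undertranslated one. The share of all probe sets in the full order was not computed, so this order is not shown to set the matrix genes apart. A bulk signal of this kind cannot tell fewer cells with an mRNA from less of it in each cell.

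Among the proteoglycans, Bgn had deposited intensities of 202, 299, 54.8 and 210 on the undertranslated arrays (starved replicates 1 and 2, then serum replicates 1 and 2). On the polyribosome arrays they were 9469, 9047, 10172 and 9104 in the same order. Every polyribosome array was far above every undertranslated one, and the log2 difference of scaled values was 3.17 ± 0.16 (SE, 4 arrays a side, limma adjusted p = 1.01e-05). The second Bgn probe set, 162347_f_at, did not pass (-0.46 ± 0.23, adjusted p = 0.120), although its deposited values were 46.0 to 87.2 in undertranslated and 818 to 993 in polyribosome RNA. It passed as lower without serum undertranslated replicate 2 (-0.64 ± 0.20, adjusted p = 0.0263) and was higher by 1.28 ± 0.22 with median centring, so the Bgn probe sets disagreed in size and, by the scaled values, in direction.

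Dcn, a decorator of collagen fibrils, read 97.6, 134, 35.7 and 168 on the undertranslated arrays in the same order. Its polyribosome values were 5186, 5199, 6637 and 6934. The polyribosome arrays were all higher, with the 2 serum arrays above the 2 starved ones, and the log2 difference was 2.37 ± 0.25 (limma adjusted p = 0.000161). Lum, which helps space collagen fibrils, read 28.9, 25.1, 10.9 and 33.1 against 2006, 2569, 2715 and 3280. Its undertranslated signal was dim on every array, and the difference was 2.92 ± 0.34 (adjusted p = 0.000248).

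Ogn, the osteoglycin gene, read 176, 235, 24.1 and 130 on the undertranslated and 4927, 3997, 2881 and 3547 on the polyribosome arrays (160877_at). The pools did not overlap, and serum undertranslated replicate 1 was far below its partner. The log2 difference was 1.28 ± 0.31 (adjusted p = 0.00869), the smallest among the 7 genes called higher. The second probe set gave 1.77 ± 0.31 (99549_at, adjusted p = 0.00171), so both Ogn probe sets were higher in polyribosome RNA.

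Sparc, a collagen-binding glycoprotein, read 53.1, 70.2, 12.1 and 43.1 on the undertranslated arrays and 3419, 2765, 2744 and 3088 on the polyribosome arrays. All polyribosome arrays were higher, and the lowest undertranslated one was again serum replicate 1. The log2 difference was 2.34 ± 0.32 (adjusted p = 0.000522). Fstl1 read 58.8, 145, 28.4 and 56.8 against 5055, 1912, 4559 and 4024, with starved polyribosome replicate 2 well below the other polyribosome arrays. Its difference was 1.94 ± 0.32 (adjusted p = 0.00135).

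Serpinf1 had the largest fitted difference of the 8 genes with quantile normalization and in the other scalings, which rank genes alike by construction. Its probe set 93574_at read 4.2, 7.3, 2.1 and 5.5 on the undertranslated arrays, below background on each, and 2334, 2734, 1735 and 3190 on the polyribosome arrays. Serpinf1 was therefore at least 28.2-fold higher in polyribosome RNA by the scaled values. The limma adjusted p of 1.88e-05 belongs to the fitted difference, which rests on those signals below background, and the bound was not tested. The bound sets the polyribosome mean against the mean, over the undertranslated arrays, of the lowest signal above background. The second probe set, 162429_r_at, was above background on 2 of 4 polyribosome arrays, both of serum-treated cells, and on starved undertranslated replicate 1, and its values ran from 3.2 to 43.8. It did not pass (-0.85 ± 0.54, adjusted p = 0.210), but passed as lower without starved undertranslated replicate 2 (-1.48 ± 0.38, adjusted p = 0.0197) and as higher in the values as deposited (1.12 ± 0.44).

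Fn1, the fibronectin gene, behaved differently. It read 202, 259, 124 and 198 on the undertranslated arrays and 916, 834, 789 and 790 on the polyribosome arrays, so its deposited signal was higher in polyribosome RNA on every array, as it was for 86.2% of all probe sets. After quantile normalization the order turned, with a log2 difference of -1.92 ± 0.17 (limma adjusted p = 8.07e-05), and every scaled polyribosome value lay below every undertranslated one, as it did for 23.7% of all probe sets (the reverse held for 26.1%). The difference was -0.34 ± 0.21 with median centring (adjusted p = 0.178), 2.13 ± 0.33 as deposited and 2.44 ± 0.37 with scaling to hybridization controls. Relative to the median of all probe sets it was below 0 in each scaling: -1.97 with quantile normalization and -0.89 in each of the other 3. Fn1 had the lowest difference of the 8 genes with quantile normalization and in the other 3 scalings, followed by Ogn each time. Those 3 differ only in the level given to each array, so they rank the genes alike by construction. Bgn ranked 7 from the lowest with quantile normalization and 3 in the others.

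**Figure D2:**
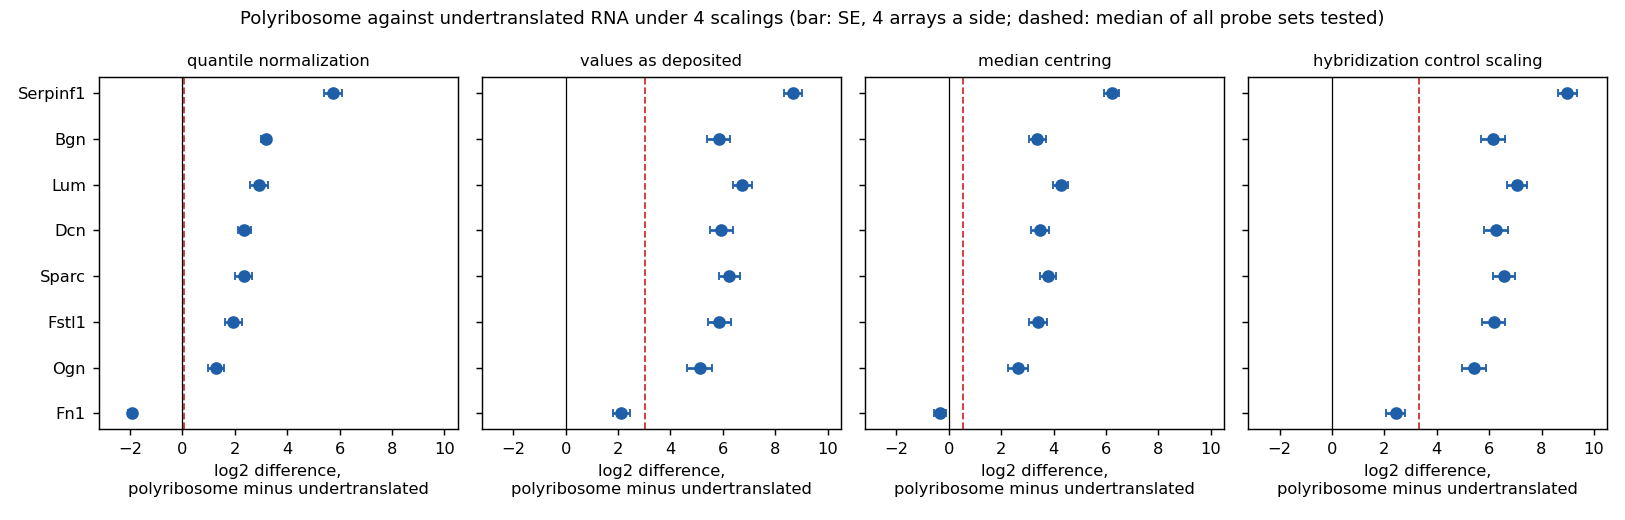
Log2 difference between polyribosome and undertranslated RNA of the 8 genes under 4 scalings, with SE bars (4 arrays a side) and the median of all probe sets tested as a dashed line. Serpinf1 rests on undertranslated signals below background. 7 genes lie to the right of 0 and of the median in each panel, while Fn1 lies left of the median in each panel but is above 0 as deposited and with scaling to hybridization controls.

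The scaling set how all probe sets divided. Of the probe sets called, 52.9% were higher in polyribosome RNA with quantile normalization, 66.8% with median centring, 99.6% as deposited and 99.7% with hybridization controls. The median of all probe sets moved from 0.05 to 0.55, 3.02 and 3.33 in that order. Relative to that median, 6 other genes stood at 2.09 (Ogn) to 3.73 (Lum) in the latter 3 scalings. Serpinf1 had the highest fitted value in each, which rests on undertranslated signals below background. Absolute loading of an mRNA is therefore not given by these values. Fn1 and Ogn stood below the other 6 genes with quantile normalization and in the latter 3 scalings, which share their order by construction.

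Within starved cells 6 of the 8 genes were higher in polyribosome RNA and Fn1 was lower, where 14.6% of all probe sets were higher and 13.7% lower. The differences were 3.13 ± 0.23 for Bgn, 2.65 ± 0.48 for Lum, 2.22 ± 0.35 for Dcn, 1.89 ± 0.45 for Sparc and 1.50 ± 0.45 for Fstl1, with Serpinf1 at least 35.2-fold higher. Fn1 stood at -1.70 ± 0.24, but at 1.93 as deposited and 2.43 with hybridization controls, and Ogn missed the threshold (1.14 ± 0.44, limma adjusted p = 0.0860). Leaving out either serum undertranslated array moved the Ogn difference little, to 1.11 and 1.10. Its SE fell from 0.44 to 0.19, since those arrays enter this comparison mainly through the shared spread. Ogn passed in these fits, which rests on that smaller spread. The second Ogn probe set passed on all arrays (1.36 ± 0.43, adjusted p = 0.0474). Ogn also passed as higher under the other 3 scalings (2.04 to 4.94). In starved cells 7983 probe sets were called higher and 30 lower as deposited, and 8636 and 22 with hybridization controls. Passing as higher was therefore nearly given in advance in those scalings and adds little for Ogn. With median centring 3232 were called higher and 1277 lower, and Ogn stood at 2.04 ± 0.52 there.

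Several of these starved calls were lost without single arrays. Sparc lost its call without any 1 of the 4 starved gradient arrays (1.80 to 1.91, adjusted p = 0.0751 to 0.102). Lum lost it without starved polyribosome replicate 2 (2.22 ± 0.57, adjusted p = 0.0595). Fstl1 lost it without starved undertranslated replicate 1 or 2 (1.06 and 1.87), starved polyribosome replicate 1 (0.78) or serum polyribosome replicate 1 or 2 (both 1.52), with adjusted p from 0.0554 to 0.220, and also with no filter (adjusted p = 0.0504) or no variance trend (0.0802). The second Ogn probe set lost it without any starved gradient array or either serum polyribosome array (1.28 to 1.48, adjusted p = 0.0730 to 0.194), with no filter (0.0608), with no variance trend (0.0933) and with all 10 arrays in 1 fit (0.0509). The second Serpinf1 probe set, at -2.28 ± 0.76 on all arrays (adjusted p = 0.0542), passed as lower with the replicate number as a block (adjusted p = 0.0357). It also passed without serum undertranslated replicate 1 or 2 (-2.38 and -2.37) and without starved undertranslated replicate 2 (-3.54), and the starved polyribosome signal of this probe set was below background.

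In serum-treated cells 7 genes were higher in polyribosome RNA and Fn1 was lower, where 23.5% of all probe sets were higher and 20.5% lower. Lum stood at 3.18 ± 0.48, Bgn at 3.21 ± 0.23, Sparc at 2.79 ± 0.45, Dcn at 2.51 ± 0.35 and Fstl1 at 2.38 ± 0.45, and Serpinf1 was at least 22.6-fold higher. Fn1 stood at -2.15 ± 0.24, but at 2.32 as deposited and 2.44 with hybridization controls. Ogn passed narrowly (1.43 ± 0.44, limma adjusted p = 0.0305). Its call was lost without starved undertranslated replicate 1 or 2 (1.41 and 1.40), serum undertranslated replicate 1 (0.63) or serum polyribosome replicate 1 or 2 (1.68 and 1.20), with adjusted p from 0.0589 to 0.159, and with no variance trend (adjusted p = 0.0684).

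The shift of loading by serum, the difference of these differences, passed for none of the 8 genes and for none of the 9316 probe sets by limma (0% called), while 720 probe sets had an unadjusted p under 0.05. Estimates ran from -0.45 ± 0.34 for Fn1 to 0.90 ± 0.64 for Sparc. The SE of the shift was 0.33 to 0.71 over the 8 genes, which limits what 2 arrays a group can detect. Without serum undertranslated replicate 2, Sparc passed (1.76 ± 0.30, adjusted p = 0.0185), as did the second Ogn probe set (1.66 ± 0.27, adjusted p = 0.0160), and 909 probe sets were then called in all. The 2 serum undertranslated arrays differed most between replicates, with a median SD of 0.56 over probe sets against 0.34, 0.20 and 0.20 in the other gradient groups.

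The next comparisons set each gradient pool against cytoplasmic RNA, with the serum state in the fit. Cycloheximide and the extraction also differ between these pools and cannot be told apart from the pool, and each cytoplasmic group has 1 array. Ogn and Lum were higher in polyribosome than in cytoplasmic RNA and Sparc was lower, so 3 of the 8 genes passed, where 26.4% of all probe sets did, 54.8% of them higher. The median of the 8 genes was 0.18, beside 0.00 over all probe sets.

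Ogn had cytoplasmic intensities of 708 (starved) and 164 (serum), against 2881 or more on every polyribosome array. Both of its probe sets were higher in polyribosome RNA by about the same amount, 2.04 ± 0.29 (limma adjusted p = 0.00175) and 2.06 ± 0.23 (adjusted p = 0.000826), and 160877_at had a difference of 1.87 to 3.46 under the other scalings. It was the gene with the highest polyribosome signal relative to cytoplasmic RNA and, after Fn1, the lowest relative to undertranslated RNA. Lum read 482 and 357 in cytoplasmic RNA, below each polyribosome array, and differed by 1.08 ± 0.29 (adjusted p = 0.0220). Its call was lost without the serum cytoplasmic array (0.69 ± 0.39, adjusted p = 0.333) and without serum polyribosome replicate 2 (0.93 ± 0.29, adjusted p = 0.0621), and with all 10 arrays in 1 fit (adjusted p = 0.164).

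Sparc read 2049 and 2000 in cytoplasmic RNA, nearly equal, and was lower in polyribosome RNA by the scaled values (-1.15 ± 0.18, limma adjusted p = 0.00236) but higher as deposited (0.56 ± 0.18). Relative to the median of all probe sets the deposited difference was -0.74. The Sparc call was lost without the serum cytoplasmic array (-1.14 ± 0.27, adjusted p = 0.0647) and with all 10 arrays in 1 fit (adjusted p = 0.0952). Without that array 1 gene of the 8 was called and 363 probe sets in all, against 2463 with it.

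The other 5 genes did not pass: Serpinf1 at 0.90 ± 0.32 (adjusted p = 0.0637), Dcn at 0.57 ± 0.24, Fn1 at -0.56 ± 0.20 (adjusted p = 0.0638), Fstl1 at -0.46 ± 0.36 and Bgn at -0.21 ± 0.16. Fn1 passed as lower with the replicate number as a block (-0.64 ± 0.20, adjusted p = 0.0490) and without starved polyribosome replicate 2 (-0.65 ± 0.20, adjusted p = 0.0393), while it was higher as deposited. Serpinf1 passed as higher without serum polyribosome replicate 1 (1.17 ± 0.25, adjusted p = 0.0109), with the filter at the median (0.0499) and under the other 3 scalings, and Dcn without the starved cytoplasmic array (1.06 ± 0.28, adjusted p = 0.0464). Bgn passed as lower with median centring (-0.48 ± 0.14) and hybridization controls (-0.80 ± 0.22) but as higher in the deposited values (0.78 ± 0.14). The second Serpinf1 probe set passed as lower without the serum cytoplasmic array (-2.40 ± 0.44, adjusted p = 0.0390). The second Bgn probe set passed as lower (-0.72 ± 0.21, adjusted p = 0.0324) but not without either cytoplasmic array, starved polyribosome replicate 1 or either serum polyribosome array (-0.59 to -0.73, adjusted p = 0.0525 to 0.218), with no variance trend (0.0587), with all 10 arrays (0.155) or with 2 of the other scalings, and it too was higher as deposited. All 8 genes were called higher as deposited, where 98.8% of all calls were higher, against 66.2% with median centring and 39.3% with hybridization controls.

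Undertranslated RNA differed more from cytoplasmic RNA. By the scaled values 6 of the 8 genes were lower in undertranslated RNA and Fn1 was higher, where 15.7% of all probe sets were lower and 14.4% higher, and the median of the 8 genes was -2.12 beside 0.05 over all. Serpinf1 was at least 15.1-fold lower, Sparc differed by -3.49 ± 0.42, Bgn by -3.38 ± 0.20 and Fstl1 by -2.40 ± 0.26. Lum differed by -1.83 ± 0.43 and Dcn by -1.80 ± 0.32. These 6 genes were lower under all 4 scalings. As deposited 5384 probe sets were called lower and 99 higher, and with hybridization controls 9014 and 7. Being lower was therefore nearly given in advance in those scalings. Lum lost its call without the starved (-1.70 ± 0.68) or the serum cytoplasmic array (-1.95 ± 0.68, limma adjusted p = 0.143 and 0.149), and Dcn without the starved one (-1.50 ± 0.47, adjusted p = 0.0765).

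Fn1 was higher in undertranslated than in cytoplasmic RNA by the scaled values (1.36 ± 0.20, limma adjusted p = 0.00182), although its deposited intensities of 124 to 259 were below the cytoplasmic 363 and 458. With median centring it stood at 0.11 ± 0.31 and did not pass, and it was below 0 as deposited (-1.10 ± 0.47) and with hybridization controls (-3.00 ± 0.45). Relative to the median of all probe sets it was 0.45 in those 3 scalings. Ogn did not pass (0.76 ± 0.42, adjusted p = 0.204). Its serum cytoplasmic signal of 164 fell among undertranslated signals of 24.1 to 235, the one overlap of pools among the 8 genes. Of all calls, 47.8% were higher with quantile normalization, 27.3% with median centring, 1.81% as deposited and 0.0776% with hybridization controls.

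**Figure D3:**
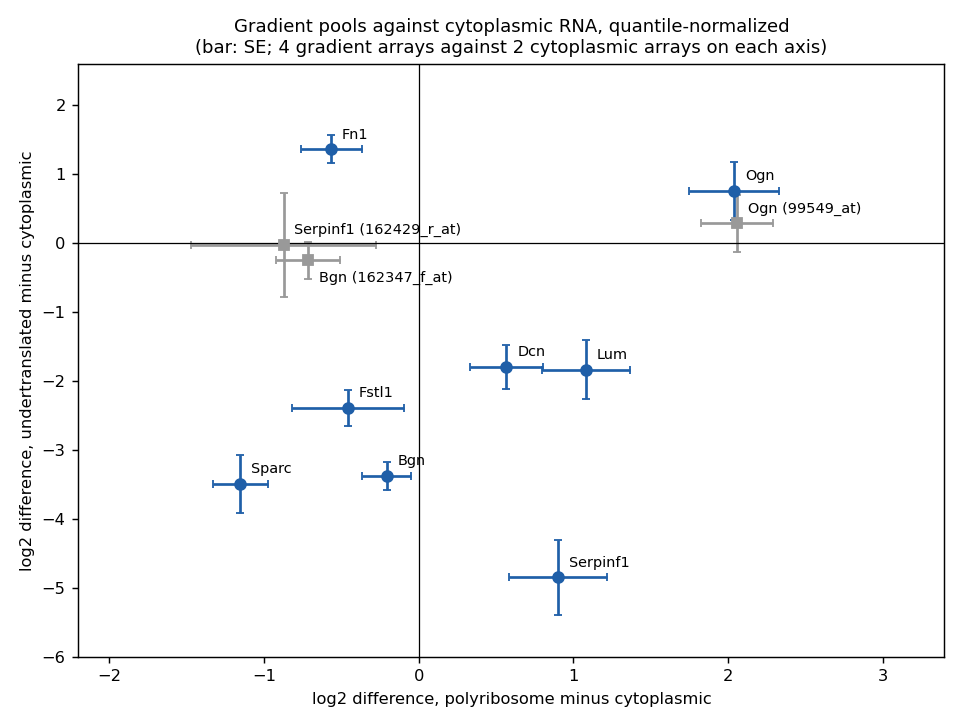
Log2 difference of scaled values from cytoplasmic RNA, for polyribosome RNA on the horizontal and undertranslated RNA on the vertical axis, with SE bars (4 gradient arrays against 2 cytoplasmic arrays). 6 genes lie well below 0 on the vertical axis, Ogn lies at 2.04 on the horizontal axis, and Fn1 lies above 0 on the vertical axis, a direction that turns as deposited and with scaling to hybridization controls.

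The serum comparisons asked whether the matrix mRNAs changed within 2 h of serum. In polyribosome and cytoplasmic RNA together, with the pool in the fit, none of the 8 genes passed by limma, where 0.891% of probe sets were called and 1091 had an unadjusted p under 0.05. Ogn had the largest difference, -1.11 ± 0.27 (adjusted p = 0.137, serum lower in 3 of 3 pairs of arrays), and -0.48 ± 0.22 by its second probe set (adjusted p = 0.440). The Ogn 160877_at difference was -0.69 without the starved and -0.68 without the serum cytoplasmic array, and its adjusted p was 0.0629 to 0.928 over the alternatives tried. The other 7 genes ran from -0.07 ± 0.15 for Bgn to 0.27 ± 0.34 for Fstl1. Their median with Ogn was 0.13, beside -0.01 over all probe sets.

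Ogn stood apart in the cytoplasmic pair, which has 1 array a state and no test. Its intensity was 708 in starved and 164 in serum-treated cells, 3.98-fold lower with serum by the scaled values, and 394 and 161 by the second probe set, 2.16-fold lower. Past 2-fold lower were 6.32% of probe sets, and 160877_at lay at the 0.419 percentile of all differences. The dim second Serpinf1 probe set also lay past 2-fold lower, from 21.4 to 8.4, which is below background. None of the other 7 genes differed by over 1.43-fold by its representative probe set: Bgn read 5542 and 5436, Sparc 2049 and 2000, and Fn1 363 and 458.

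On the polyribosome arrays Ogn read 4927 and 3997 in starved and 2881 and 3547 in serum-treated cells, lower with serum by 0.94 and 0.41 (log2, replicates 1 and 2). That is a smaller difference than the 1.99 in cytoplasmic RNA. A test of the difference between the pools, chosen after the values were seen, gave -1.32 ± 0.42 for Ogn (unadjusted p = 0.0151, limma adjusted p = 0.775), with no probe set called and 556 at an unadjusted p under 0.05. Under the other 3 scalings it was -1.45 to -1.74 (adjusted p of at least 0.998). Macrophage markers moved the other way: 6 of 11 tested were higher with serum in polyribosome and cytoplasmic RNA, with a median of 1.10, and their summed intensity was 430 and 964 on the 2 cytoplasmic arrays (starved, serum). The macrophage markers Aif1 and Itgam were above background on none of the 10 arrays. The 12 fibroblast markers, none called, summed to 9662 and 8507 on those arrays. Their part in the Ogn difference was not tested.

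In undertranslated RNA none of the 8 genes passed with serum by limma, where 1.07% of probe sets were called and 1762 had an unadjusted p under 0.05. Sparc stood at -0.98 ± 0.45 and Ogn at -0.97 ± 0.44 (adjusted p = 0.276 for each). Both differences came mainly from replicate 1, with -1.72 and -1.78 there against -0.24 and -0.16 in replicate 2. Without serum undertranslated replicate 2, Sparc (-1.84 ± 0.23, adjusted p = 0.00305), Ogn (-1.77 ± 0.24, adjusted p = 0.00348) and the second Ogn probe set (-1.82 ± 0.21, adjusted p = 0.00232) passed as lower, and 2297 probe sets were then called against 100. Fn1 was the gene with the highest estimate, 0.44 ± 0.24 (adjusted p = 0.337).

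**Figure D4:**
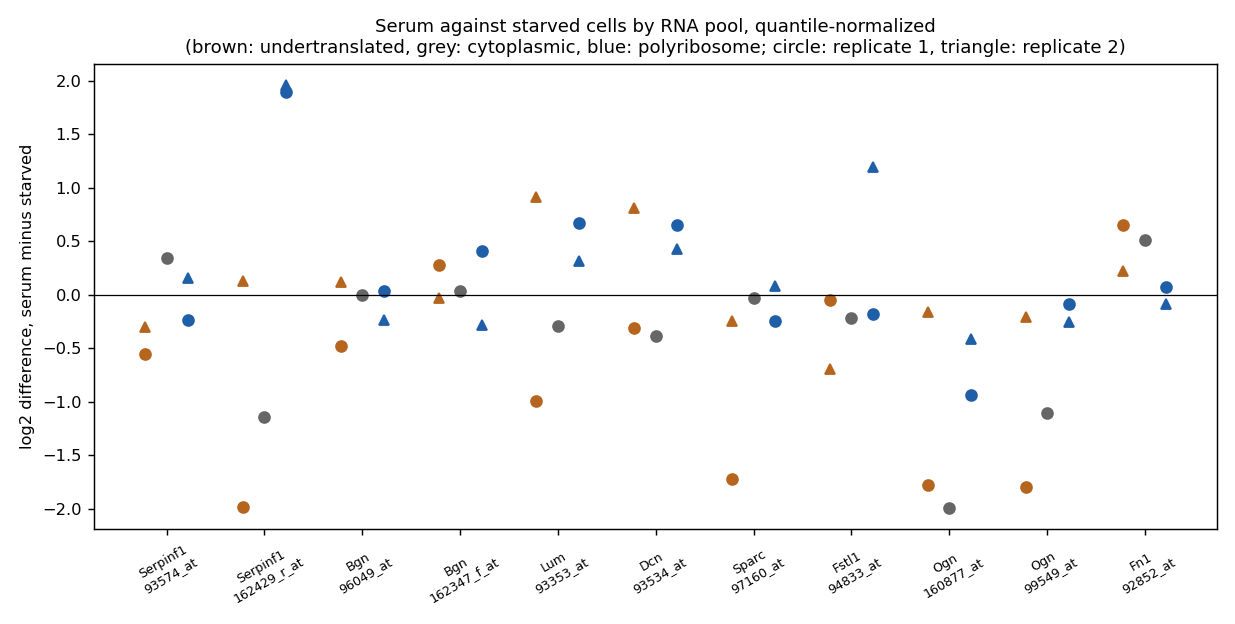
Log2 difference of scaled values between serum-treated and starved cells for the 11 probe sets, by pool and replicate pair (circles replicate 1, triangles replicate 2). Ogn 160877_at lies below 0 in every pair, lowest in cytoplasmic RNA at -1.99, and replicate 1 of the undertranslated pool lies far from replicate 2 for Sparc, Ogn, Lum, Dcn and Serpinf1 162429_r_at.

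Genes around these proteins, from lists chosen with earlier results of these data known, gave a background for the loading differences. Of 45 other matrix glycoproteins and proteoglycans tested, 24 were higher in polyribosome than in undertranslated RNA and 3 lower by the scaled values (53.3% and 6.67%, beside 28.7% and 25.5% of all probe sets), with a median of 1.23 beside 0.05 over all probe sets. Among the higher ones were Fbln2 (fibulin-2, 3.15 ± 0.29) and, below background on all 4 undertranslated arrays, Fmod (fibromodulin, at least 7.41-fold), Nid2 (nidogen-2, at least 1.69-fold) and Lamb2 (a laminin chain, at least 1.64-fold), whose bounds give no order. Lower were Ncan (-2.12 ± 0.42), Ltbp3 (-1.40 ± 0.29) and Tnxb. Ncan was above background on 2 of 4 polyribosome arrays, so its size rests on dim values. Tnxb was above background on 1 of 4 undertranslated and on no polyribosome array and is given no size. Of 22 enzymes of matrix assembly and glycosaminoglycan synthesis, 13 were higher and 2 lower (59.1% and 9.09%, against the same 28.7% and 25.5%), with a median of 0.91. They included Ext2 (3.34 ± 0.59), which builds heparan sulfate, the collagen prolyl hydroxylase subunit P4ha1 (at least 3.57-fold), the lysyl hydroxylase Plod3 (2.69 ± 0.41) and Chpf (2.40 ± 0.64), with P4hb (-1.18 ± 0.18) and Furin (-0.99 ± 0.20) lower. Ext2 and Chpf were above background on 1 of 4 undertranslated arrays and Plod3 on 2, so their sizes rest on dim values. Plod3 had a probe set of the opposite direction (161253_i_at, -1.65 ± 0.41) and another that was higher (2.85 ± 0.34).

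Of 25 genes of translocation and first glycosylation at the endoplasmic reticulum, 13 were higher in polyribosome RNA and 6 lower, with a median of 1.09. That is 52.0% higher and 24.0% lower, the latter close to the 25.5% of all probe sets called lower. Higher were the signal recognition particle receptor Srpr (3.98 ± 0.64), Ddost (at least 3.17-fold), Sec63 (at least 2.28-fold) and Ssr2 (3.42 ± 0.42). Of the 6 lower genes, those with the largest differences were Sec11c (-2.36 ± 0.26), Srp19 (-2.22 ± 0.25), Spcs1 (-1.21 ± 0.21) and Srp9 (-1.01 ± 0.16). Of 21 receptors and growth factors that bind matrix, 8 were higher and 3 lower (38.1% and 14.3%, against 28.7% and 25.5% of all probe sets), with a median of 0.62 beside 0.05: Itgb5 (at least 12.8-fold), Dag1 (3.41 ± 0.64), Eng (1.80 ± 0.38) and Ddr1 (1.79 ± 0.36) against Sdc3 (-1.72 ± 0.52), Mrc2 (-1.49 ± 0.32) and Pnpla2 (-0.76 ± 0.28), a lipase proposed as a receptor for the Serpinf1 protein. Of 4 undertranslated arrays, Srpr and Sdc3 were above background on 3, Dag1 on 2, and Ssr2 and Ddr1 on 1. Second probe sets of P4hb, Srpr and Itgb5 did not pass, and that of Dag1 was higher too.

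All 12 genes named as lower stood above 0 as deposited and with hybridization controls, and 4 of them (P4hb, Furin, Spcs1 and Srp9) also with median centring. The genes named as higher stood above 0 in all 4 scalings. They were picked for large positive scaled differences, and the other 3 scalings raise the median of all probe sets (0.55 to 3.33). Their staying above 0 was therefore nearly given in advance. As deposited, 42, 22, 25 and 20 genes of the 4 lists were called higher and none lower, where 91.9% of all probe sets were called higher. Leaving out single arrays ended the calls of Tnxb, Pnpla2, Sdc3 and Chpf. For Tnxb these were any polyribosome array or either replicate 1 of undertranslated RNA (adjusted p = 0.0503 to 0.152), for Pnpla2 any polyribosome array or either starved undertranslated array (-0.65 to -0.84), for Sdc3 any polyribosome array (-1.63 to -1.73) and for Chpf starved polyribosome replicate 2 (2.16). With serum, 1 gene each of 3 lists passed in polyribosome and cytoplasmic RNA: Tgfbi (1.47 ± 0.18, limma adjusted p = 0.0122), the hyaluronan synthase Has2 (1.29 ± 0.23, adjusted p = 0.0397) and, lower, Bmp4 (-1.57 ± 0.24, adjusted p = 0.0223). Has2 lost its call under the other 3 scalings and without each of the 6 arrays (1.05 to 1.45, adjusted p up to 0.215). Tgfbi lost its call with hybridization controls. Both Tgfbi and Bmp4 lost theirs without either cytoplasmic array, starved polyribosome replicate 1 or serum polyribosome replicate 2 (1.33 to 1.51 and -1.19 to -1.67, adjusted p up to 0.181).

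The 5 genes whose scaled values followed the mean profile of the matrix genes most closely over the 10 arrays were Idh3g (Pearson r = 0.993), Lman1 (0.993), Cope (0.991), Lifr (0.990) and Ergic1 (0.990). The median over 8264 candidate probe sets was 0.111. Of 4 undertranslated arrays, Lman1 was above background on 3, Idh3g and Ergic1 on 1, and Cope and Lifr on none. These r values therefore rest in part on dim signals. Lman1, Cope and Ergic1 encode proteins of traffic between the endoplasmic reticulum and the Golgi, Idh3g a subunit of mitochondrial isocitrate dehydrogenase and Lifr a cytokine receptor. Of the matrix genes themselves, Fn1 had r = -0.976 with quantile normalization and -0.524 with median centring, but 0.977 as deposited and 0.978 with hybridization controls, so its sign turned with the scaling. Ogn had r = 0.447, 0.775, 0.921 and 0.940 in that order, and the other 6 genes 0.890 to 0.988 with quantile normalization. Each matrix gene is itself part of the mean profile, which raises its r by construction. The candidates are not part of it, so the r values of the matrix genes are not comparable with the candidate medians. The median over candidates was 0.517 with median centring, 0.934 as deposited and 0.958 with hybridization controls. These correlations describe arrays that share the pool differences in signal described above.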

How the data were processed

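The members and the gene lists were chosen with earlier results of these data known. The authors reverse-transcribed, linearly amplified and biotin-labelled the RNA and read it on Affymetrix arrays, per the labels' protocols. Deposited intensity values are linear, 1 per probe set and array. No source used here gives their summarisation and scaling. Of 12422 ordinary probe sets 10833 have 1 gene symbol, 396 several and 1193 none in the platform annotation. From the deposited intensities, log2(intensity + 1.5) was computed (1.5 being about the 10th percentile), quantile normalized over ordinary probe sets, and filtered to 9316 probe sets. Adding 1.5 shrinks fold changes of dim genes.

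limma 3.58.1 in R 4.3.3 (lmFit, eBayes with a trend) fitted the 8 gradient arrays (4 residual degrees of freedom) or 6 arrays of 2 pools (3 residual degrees of freedom). All p-values are two-sided and adjusted over all probe sets kept (Benjamini-Hochberg, threshold 0.05). The genes named from each list were up to 4 called genes per direction with the largest differences, and for the most like genes the 5 highest Pearson correlations. Tests were checked on simulated data. Bounds use scaled values and hold within that scaling.

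The replicate number marks 4-thiouridine labelling, per the labels. Same-numbered arrays deviated together only between the polyribosome groups (correlation 0.275, against 0.0171 to 0.0535 for other pairs of groups). A fit with the replicate block was an alternative, beside 3 other scalings, pseudocounts of 1 and 4, 2 other filters, eBayes without the trend, a single probe set for each gene, all 10 arrays in 1 fit, and each array left out. Promoters are from RefSeq.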

Additional observations from a re-analysis of the deposited data

How the results depend on the processing

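The count of genes called was within 1.5 times the main count for polyribosome against undertranslated RNA over both states (8 in each fit without 1 array), in starved cells (5 to 8) and in serum-treated cells (7 to 8). That held too for undertranslated against cytoplasmic RNA (5 to 7) and for serum in polyribosome and cytoplasmic RNA (0 to 0). The fits without 1 array gave 0 to 1 for the shift by serum and 0 to 2 for serum in undertranslated RNA. Polyribosome against cytoplasmic RNA called 3 genes, but 8 as deposited, 5 with median centring, 5 with hybridization control scaling, 1 with all 10 arrays in 1 fit and 1 to 4 without 1 array. The cause was not tested. With the replicate block the counts were 8, 7, 8, 0, 0, 0, 4 and 7 for loading over both states, in starved and in serum-treated cells, its shift by serum, serum in undertranslated RNA, serum in polyribosome and cytoplasmic RNA, polyribosome and undertranslated against cytoplasmic RNA. The block changed 2 calls of single probe sets, Fn1 and the second Serpinf1 probe set, both given above, and no other.

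Direction reversed in 28 of 1574 comparisons of single probe set values, all of them with another scaling, and 66 more sign changes were of values that never passed. For polyribosome against undertranslated RNA, as deposited and then with hybridization control scaling, Fn1 stood at 2.13 and 2.44 over both states, 1.93 and 2.43 in starved and 2.32 and 2.44 in serum-treated cells. Bgn 162347_f_at stood at 3.75, 1.28 (median centring) and 4.06 over both states, 3.41, 1.01 and 3.92 in starved and 4.08, 1.55 and 4.20 in serum-treated cells. Serpinf1 162429_r_at stood at 1.12 and 1.43 over both states. For polyribosome against cytoplasmic RNA as deposited, Sparc stood at 0.56, Fn1 at 1.02, Bgn at 0.78 and 0.89 (162347_f_at) and Fstl1 at 1.07. For undertranslated against cytoplasmic RNA, as deposited and with hybridization control scaling, Fn1 stood at -1.10 and -3.00, Ogn 160877_at at -1.65 and -3.55 and Ogn 99549_at at -2.17 and -4.06. These scalings differ by construction in the level they give each array.

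Signal over background limits the undertranslated values most: the lowest Lum signal there was 10.9 and that of Sparc 12.1, and Serpinf1 has only a bound. Each cytoplasmic group has 1 array, so its spread was not measured within a serum state. In fits without 1 array of a group of 2, the lone array is assumed to vary like the other groups.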
